A study of Mus musculus with 14 samples.

Results

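The enzymes that build heme were followed through embryonic blood of 2 mouse crosses that carry different lesions of Cbfb, the gene of the subunit of core binding factor that does not itself bind DNA. The set holds 7 of the 18193 genes with a probe set: Alas2, Alad, Uros, Urod, Cpox, Ppox and Fech. It was formed by taking every probe set whose platform symbol was one of these names, which gave 17 of the array's 45101 probe sets. Of the 17, 14 passed the filter on low values (a log2 value of at least 6 on at least 3 of the 14 arrays). The other 3 did not, and they are Ppox 1441862_at and 1448065_at and Fech 1427696_at.

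Blood was taken at E12.5 (embryonic day), and each RNA came from a pool of 8 to 10 embryos of a single genotype. In the fusion cross, chimeras carrying Cbfb-MYH11 were bred to C57/Bl6 females. Their offspring were Cbfb+/MYH11, with 1 allele that makes the fusion of Cbfb to the smooth muscle myosin gene MYH11 as in inv(16) acute myeloid leukemia, or littermates labelled WT. In the null cross, Cbfb+/- parents gave Cbfb-/- embryos, which have no intact Cbfb, and littermates labelled Cbfb+/+. Cbfb+/MYH11 and WT have 4 arrays each, and Cbfb-/- and Cbfb+/+ have 3 each. WT and Cbfb+/+ are thus both wild type at Cbfb but come from different crosses. The alleles are germline, so no cell type is targeted, and whole blood was sampled without a sort. Since the arrays within each group are labelled technical replicates, the p-values below measure only array-to-array spread, which need not be that between litters or pools.

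Heme is made in a relay between mitochondrion and cytosol. Alas2, the erythroid form of the first and rate-limiting enzyme, joins glycine and succinyl-CoA in the mitochondrion. Alad, Uros and Urod act in building and trimming the porphyrin ring in the cytosol, Cpox and Ppox oxidize it at and inside the mitochondrion, and Fech inserts iron to give heme. Developing red cells need the pathway for hemoglobin, and GATA1 and KLF1 are textbook activators of several of its genes. Blood at this stage is mostly primitive red cells released from the yolk sac.

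The upstream sequences of 3 enzymes are shown because they belong to the enzyme at the start of the pathway, which did not rise, and to enzymes of its middle, which did. Each runs 5′ to 3′ over the bases just before an annotated start in RefSeq (GRCm38.p6). They are 250 bases long. Capitals mark matches on either strand to GATA words (AGATAA and AGATAG, with TGATAA or TGATAG) or to the KLF-type word CCNCNCCC. The words TGTGGT and TGCGGT, for RUNX, were searched too. Uros has 2 starts in the table, and both are given. The windows are chrX:150547167-150547416 on the plus strand for Alas2, chr7:133709296-133709545 and chr7:133702501-133702750 on the minus strand for Uros, and chr16:58669958-58670207 on the plus strand for Cpox.
Alas2: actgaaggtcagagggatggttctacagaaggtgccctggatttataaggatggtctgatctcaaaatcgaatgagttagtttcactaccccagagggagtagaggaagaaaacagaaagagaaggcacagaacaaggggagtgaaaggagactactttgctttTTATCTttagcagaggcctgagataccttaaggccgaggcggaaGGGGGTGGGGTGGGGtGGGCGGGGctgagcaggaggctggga
Uros start 1: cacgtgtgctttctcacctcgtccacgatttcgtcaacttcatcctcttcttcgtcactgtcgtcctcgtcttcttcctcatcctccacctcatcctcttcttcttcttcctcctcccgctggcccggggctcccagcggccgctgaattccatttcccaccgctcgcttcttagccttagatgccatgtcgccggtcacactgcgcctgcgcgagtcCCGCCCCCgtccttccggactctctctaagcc
Uros start 2: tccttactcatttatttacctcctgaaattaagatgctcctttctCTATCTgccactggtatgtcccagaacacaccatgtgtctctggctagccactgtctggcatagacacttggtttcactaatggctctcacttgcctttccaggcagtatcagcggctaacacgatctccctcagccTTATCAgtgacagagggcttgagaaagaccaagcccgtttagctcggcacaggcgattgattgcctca
Cpox: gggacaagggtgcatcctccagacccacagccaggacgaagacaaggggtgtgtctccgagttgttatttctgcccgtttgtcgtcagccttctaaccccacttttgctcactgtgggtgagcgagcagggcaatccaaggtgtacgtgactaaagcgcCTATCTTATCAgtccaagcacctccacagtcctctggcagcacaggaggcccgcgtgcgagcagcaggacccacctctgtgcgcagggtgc

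The Alas2 window has 1 GATA match, 86 bases before the start, and 4 KLF matches, some of which overlap. The first Uros window has 1 KLF match and no GATA match, and the second has 2 GATA matches, 205 and 68 bases before the start, and no KLF match. Cpox has 2 GATA matches, 91 and 86 bases before the start, which overlap in a single base. None of these windows has a RUNX match. Among the other members with a window in the table, Urod had 1 RUNX match 199 bases before its start, each of the 2 Alad windows had KLF matches, and the 250 bases before Ppox had none of the words. Fech is not in the table. Over the 250 bases before the start, GATA words occurred in 26.5% of all 32851 windows, the KLF word in 45.9% and RUNX words in 18.6%, so single matches are common. A match describes letters and is not a measured site. The positions of the array probes were not used, so no value below is tied to 1 of the 2 Uros starts.

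All values are on the log2 scale of the deposited normalized intensities. A level is compared only within a probe set, because probe sets bind with different strength. A probe set was called, and is said to have risen or fallen, where limma's adjusted p was under 0.05 and the groups differed by 1.5-fold or more. In Cbfb+/MYH11 against WT, 8 of the 14 tested probe sets of the enzymes rose and 1 fell, against 30.4% and 5.64% of all 12190 tested probe sets. The enzymes' share was 57.1% higher and 7.14% lower. One of the 8, Cpox 1440747_at, passed the filter only through the fusion arrays, and without it 7 of 13 rose and 1 fell. The median difference was 0.74 for the 14, 0.62 for the 13 and 0.27 for all tested probe sets. In Cbfb-/- against Cbfb+/+, 0 of the 14 rose and 2 fell, where 19.8% of all tested probe sets rose and 7.31% fell. Those 2 were the dimmer Alad set and the same Cpox 1440747_at, without which 1 of 13 fell. The medians there were -0.19 for the 14, -0.16 for the 13 and 0.13 for all tested probe sets. The rise was carried by Alad, Uros, Urod, Cpox and Ppox, the middle of the pathway, while the single fall was in Fech at its end.

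Both comparisons leaned upward over the whole array, and scaling matters for that lean. Of all called probe sets 84.3% were higher in Cbfb+/MYH11 as deposited and 56.2% after quantile normalization, which moved the median of all tested probe sets to -0.01. For Cbfb-/- the shares were 73.0% and 52.2%. With quantile normalization 6 enzyme probe sets rose and 3 fell in Cbfb+/MYH11, where 17.9% and 13.9% of all tested sets did. In Cbfb-/- 0 rose and 4 fell, against 14.1% and 12.9%. Cpox 1440747_at, which passed the filter only through the fusion arrays, was among both the 6 and the 4. The arrays of the fusion cross also came as pairs. The SD of log2 differences over tested probe sets was 0.11 to 0.28 within arrays 1 and 2 or arrays 3 and 4 of a genotype, and 0.40 to 0.75 between those pairs. When arrays were averaged into such putative pools, none of the 14 was called in Cbfb+/MYH11 (adjusted p from 0.105 to 0.458) or in Cbfb-/- (0.674 to 0.908), with 2 residual degrees of freedom left in the limma fit. Each group of the null cross is then a single averaged value, so the Cbfb-/- comparison sets 1 value against 1 and takes its spread from the fusion cross alone. At an unadjusted p under 0.05, 3307 and 603 of all tested probe sets passed in these fits, and 7 and 0 were called.

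**Figure D1:**
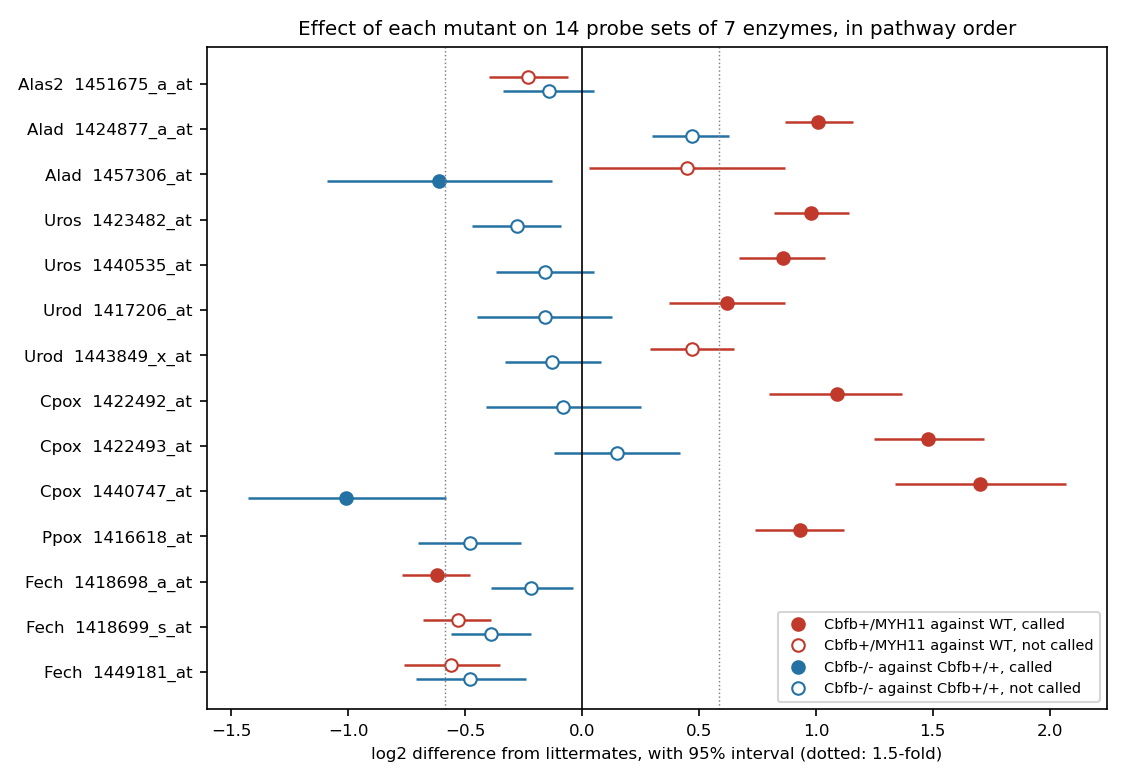
The log2 difference of each mutant from its littermates (horizontal axis) is plotted for the 14 tested probe sets in pathway order, with 95% intervals from limma, and filled points are called. Cbfb+/MYH11 (red) lies right of 0 from Alad to Ppox and left of 0 for Alas2 and the 3 Fech probe sets, while Cbfb-/- (blue) lies mostly at or left of 0.

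Alas2, which commits glycine to heme, has 1 probe set. The Cbfb+/MYH11 arrays read 13.36, 13.37, 13.13 and 13.15 and the WT arrays 13.49, 13.57, 13.43 and 13.43. The Cbfb-/- arrays read 13.33, 13.42 and 13.33, and the Cbfb+/+ arrays 13.50, 13.52 and 13.49. In both crosses every mutant array lay below every littermate array, but the gaps were small. The difference was -0.23 (95% interval -0.40 to -0.06, adjusted p = 0.0235) in Cbfb+/MYH11 and -0.14 (-0.34 to 0.05, adjusted p = 0.203) in Cbfb-/-, and neither was called. The highest value on any array was 14.55, so Alas2 sits near the top of the scale, where a probe set can be close to saturation and a change can be compressed. Alas1, its counterpart outside the red cell lineage, stayed below the filter, with group means from 5.09 to 5.74.

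Alad, which condenses aminolevulinic acid into porphobilinogen, rose about as much on every fusion array. Probe set 1424877_a_at read 11.70, 11.72, 11.61 and 11.65 in Cbfb+/MYH11, against 10.61, 10.69, 10.63 and 10.70 in WT. It read 11.43, 11.27 and 11.34 in Cbfb-/- and 10.90, 10.86 and 10.86 in Cbfb+/+. The mutant was above its littermates without overlap in both crosses, and no 2 of the 4 groups overlapped, with Cbfb+/MYH11 highest, then Cbfb-/-, Cbfb+/+ and WT. The rise in Cbfb+/MYH11 was 2.02-fold (1.83 to 2.23, adjusted p = 1.84e-07). In Cbfb-/- it was 1.38-fold (1.23 to 1.55, adjusted p = 0.000813), which is under the fold floor. The difference of these effects, 0.54, had an adjusted p of 0.00175 and was not called either.

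The dimmer Alad probe set, 1457306_at, did not follow the brighter one (r = 0.20 over 14 arrays). It read 8.13, 8.00, 7.24 and 7.24 in Cbfb+/MYH11, 7.30, 7.43, 7.12 and 6.96 in WT, 6.04, 6.19 and 6.20 in Cbfb-/-, and 6.66, 6.90 and 6.70 in Cbfb+/+. Fusion arrays 1 and 2 were above arrays 3 and 4, and the groups overlapped, whereas every Cbfb-/- array was below every Cbfb+/+ array. Its difference was 0.45 (adjusted p = 0.0591) in Cbfb+/MYH11. It was called lower in Cbfb-/- by 0.61 (adjusted p = 0.0427, limma), a call lost when any 1 of the 6 arrays of the null cross was left out (adjusted p up to 0.124). Between the mutants its effects differed by 1.06 (adjusted p = 0.0191), a call that ended with quantile normalization (0.87) and without Cbfb+/+ array 2 (0.99, adjusted p = 0.0518). With quantile normalization the difference in Cbfb+/MYH11 was 0.07. Because the 2 probe sets oppose each other there, Alad as a gene is given no direction in Cbfb-/-.

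Uros closes the linear tetrapyrrole into the ring isomer that leads to heme. At 1423482_at it read 10.84, 10.82, 10.70 and 10.71 in Cbfb+/MYH11, against 9.77, 9.78, 9.79 and 9.80 in WT. The null cross gave 9.91, 9.70 and 9.63 in Cbfb-/- and 10.04, 10.02 and 10.02 in Cbfb+/+. All fusion arrays stood above the other 10, and the mutant of the null cross lay below its littermates. The rise in Cbfb+/MYH11 was 1.98-fold (1.77 to 2.21, adjusted p = 5.9e-07), and Cbfb-/- differed by -0.28 (adjusted p = 0.0212), not called. The effects differed by 1.26 (adjusted p = 7.35e-06), which was called.

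The second Uros probe set, 1440535_at, moved with the first (r = 0.85 over 14 arrays). It read 7.59, 7.65, 7.68 and 7.79 in Cbfb+/MYH11, 6.85, 6.85, 6.77 and 6.82 in WT, 7.40, 7.05 and 7.13 in Cbfb-/-, and 7.35, 7.40 and 7.34 in Cbfb+/+. The fusion arrays were again highest, and the groups of the null cross overlapped. Its rise of 0.86 (adjusted p = 5.15e-06) became 0.48 and was not called after quantile normalization. In Cbfb-/- the difference was -0.16 (adjusted p = 0.18), and the effects differed by 1.02 (adjusted p = 0.000104).

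Urod, which trims the carboxylated side chains of the ring, showed the smallest difference of the 5 middle enzymes at their brightest probe sets. Probe set 1417206_at read 11.48, 11.60, 11.18 and 11.23 in Cbfb+/MYH11, against 10.92, 10.95, 10.56 and 10.58 in WT. It read 11.32, 11.31 and 11.26 in Cbfb-/- and 11.53, 11.46 and 11.40 in Cbfb+/+. Arrays 1 and 2 were above arrays 3 and 4 in both groups of the fusion cross, and within each pair the fusion arrays were higher. The overall difference was 1.54-fold (1.29 to 1.83, adjusted p = 0.000629). That is close to the fold floor, and the call was lost after quantile normalization (0.41) and without fusion array 2, WT array 3 or WT array 4 (0.55, 0.56 and 0.57). In Cbfb-/- the difference was -0.16 (adjusted p = 0.329), and the effects differed by 0.79 (adjusted p = 0.00618).

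The other Urod probe set, 1443849_x_at, carries a suffix that Affymetrix gives to sets with probes that may bind other transcripts. It read 12.53, 12.52, 12.25 and 12.32 in Cbfb+/MYH11, 11.97, 12.04, 11.85 and 11.87 in WT, 12.25, 12.28 and 12.25 in Cbfb-/-, and 12.41, 12.38 and 12.38 in Cbfb+/+. It moved with the first set (r = 0.97 over 14 arrays). Its difference of 0.47 (adjusted p = 0.00037) in Cbfb+/MYH11 was under the fold floor, and that of -0.13 (adjusted p = 0.281) in Cbfb-/- was not called. The effects differed by 0.60 (adjusted p = 0.00379), a call that quantile normalization ended (0.51) and that was lost without any 1 of fusion arrays 1 and 2 and WT arrays 3 and 4.

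Cpox, the oxidase that turns coproporphyrinogen into protoporphyrinogen, rose most of the 7 enzymes at their brightest probe sets. Its brightest probe set, 1422493_at, read 10.05, 10.22, 9.74 and 9.75 in Cbfb+/MYH11, against 8.50, 8.60, 8.39 and 8.35 in WT. The null cross gave 9.99, 9.88 and 9.97 in Cbfb-/- and 9.84, 9.74 and 9.80 in Cbfb+/+. The WT arrays were lowest, with no overlap. Every Cbfb-/- array was above every Cbfb+/+ array, and the fusion arrays overlapped with both. The rise over WT was 2.79-fold (2.37 to 3.28, adjusted p = 4.58e-07). In Cbfb-/- the difference was 0.15 (-0.12 to 0.42, adjusted p = 0.33), which became -0.01 with quantile normalization. The effects differed by 1.33 (adjusted p = 9.79e-05).

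The 2 other Cpox probe sets rose as well. Probe set 1422492_at read 9.29, 9.25, 8.99 and 9.10 in Cbfb+/MYH11, against 7.69, 8.19, 8.00 and 8.41 in WT, and 8.38, 8.26 and 8.32 in Cbfb-/- and 8.31, 8.44 and 8.46 in Cbfb+/+. At this set all fusion arrays exceeded the other 10, and the remaining groups overlapped. It rose by 1.09 (adjusted p = 2.69e-05) in Cbfb+/MYH11 and differed by -0.08 (adjusted p = 0.673) in Cbfb-/-, and the effects differed by 1.17 (adjusted p = 0.0011).

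Probe set 1440747_at of Cpox passed the filter only through the fusion arrays, so its difference there is not independent of having passed. It read 6.07, 6.41, 6.54 and 6.89 in Cbfb+/MYH11, 4.55, 4.55, 5.06 and 4.94 in WT, 3.40, 3.59 and 3.55 in Cbfb-/-, and 4.72, 4.33 and 4.50 in Cbfb+/+. It was called higher by 1.70 (adjusted p = 5.9e-06) in Cbfb+/MYH11 and lower by 1.01 (adjusted p = 0.00227) in Cbfb-/-, where all 6 arrays were below the filter's minimum of 6. The effects differed by 2.71 (adjusted p = 1.17e-05). Over the 14 arrays it hardly followed the brightest Cpox set (r = 0.09), which did not fall in Cbfb-/-, so Cpox as a gene is given no direction in that cross.

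Ppox, which oxidizes protoporphyrinogen to protoporphyrin, has 1 probe set past the filter, 1416618_at. It read 10.74, 10.67, 10.51 and 10.49 in Cbfb+/MYH11, against 9.63, 9.75, 9.67 and 9.64 in WT. It read 9.65, 9.47 and 9.75 in Cbfb-/- and 10.07, 10.04 and 10.19 in Cbfb+/+. The mutants lay on opposite sides of their littermates, with no overlap in either cross. Ppox rose 1.90-fold (1.67 to 2.17, adjusted p = 3.65e-06) in Cbfb+/MYH11. In Cbfb-/- it differed by -0.48 (adjusted p = 0.00347), under the fold floor, and was called lower by 0.65 after quantile normalization. The effects differed by 1.40 (adjusted p = 1.09e-05), a called difference. The 2 dim Ppox probe sets ranged from 3.64 to 4.85 and from 3.13 to 4.00 over all arrays, and no level was read from them.

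Fech, the iron-inserting last enzyme, went the other way in all of its 3 tested probe sets. The set 1418698_a_at read 11.74, 11.78, 11.84 and 11.90 in Cbfb+/MYH11, against 12.35, 12.41, 12.46 and 12.53 in WT, then 12.14, 12.12 and 12.19 in Cbfb-/- and 12.37, 12.35 and 12.39 in Cbfb+/+. Mutant arrays were lower than littermate arrays in both crosses without overlap. The set fell by 0.62 (adjusted p = 1.29e-05) in Cbfb+/MYH11. With arrays centred on their medians it was at -0.51 and not called, and with quantile normalization it was called at -0.85. Cbfb-/- differed by -0.22 (adjusted p = 0.0433), not called, and the effects by -0.41 (adjusted p = 0.0127), not called.

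The brightest Fech set, 1418699_s_at, read 12.98, 12.99, 12.81 and 12.81 in Cbfb+/MYH11, 13.42, 13.41, 13.45 and 13.46 in WT, 12.78, 12.79 and 12.76 in Cbfb-/-, and 13.19, 13.15 and 13.17 in Cbfb+/+. Again no mutant array reached its littermates. The differences were -0.53 (adjusted p = 3.86e-05) and -0.39 (adjusted p = 0.00261) in Cbfb+/MYH11 and Cbfb-/-, both under the fold floor, and the first was called after quantile normalization (-0.63). The effects differed by -0.14 (adjusted p = 0.354), with a 95% interval of -0.37 to 0.08.

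At 1449181_at Fech read 11.93, 12.12, 11.75 and 11.71 in Cbfb+/MYH11, 12.54, 12.52, 12.32 and 12.37 in WT, 11.73, 11.68 and 11.71 in Cbfb-/-, and 12.18, 12.17 and 12.20 in Cbfb+/+. The order of the group means was that of the brightest set, and both moved together (r = 0.96 over 14 arrays). Its differences of -0.56 (adjusted p = 0.000318) and -0.48 (adjusted p = 0.00531) were under the fold floor and were called after quantile normalization (-0.75 and -0.60). The fourth Fech set, 1427696_at, ranged from 4.54 to 5.24 and was not tested in the main fit. Like Alas2, the brighter Fech sets lie near the top of the scale.

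**Figure D2:**
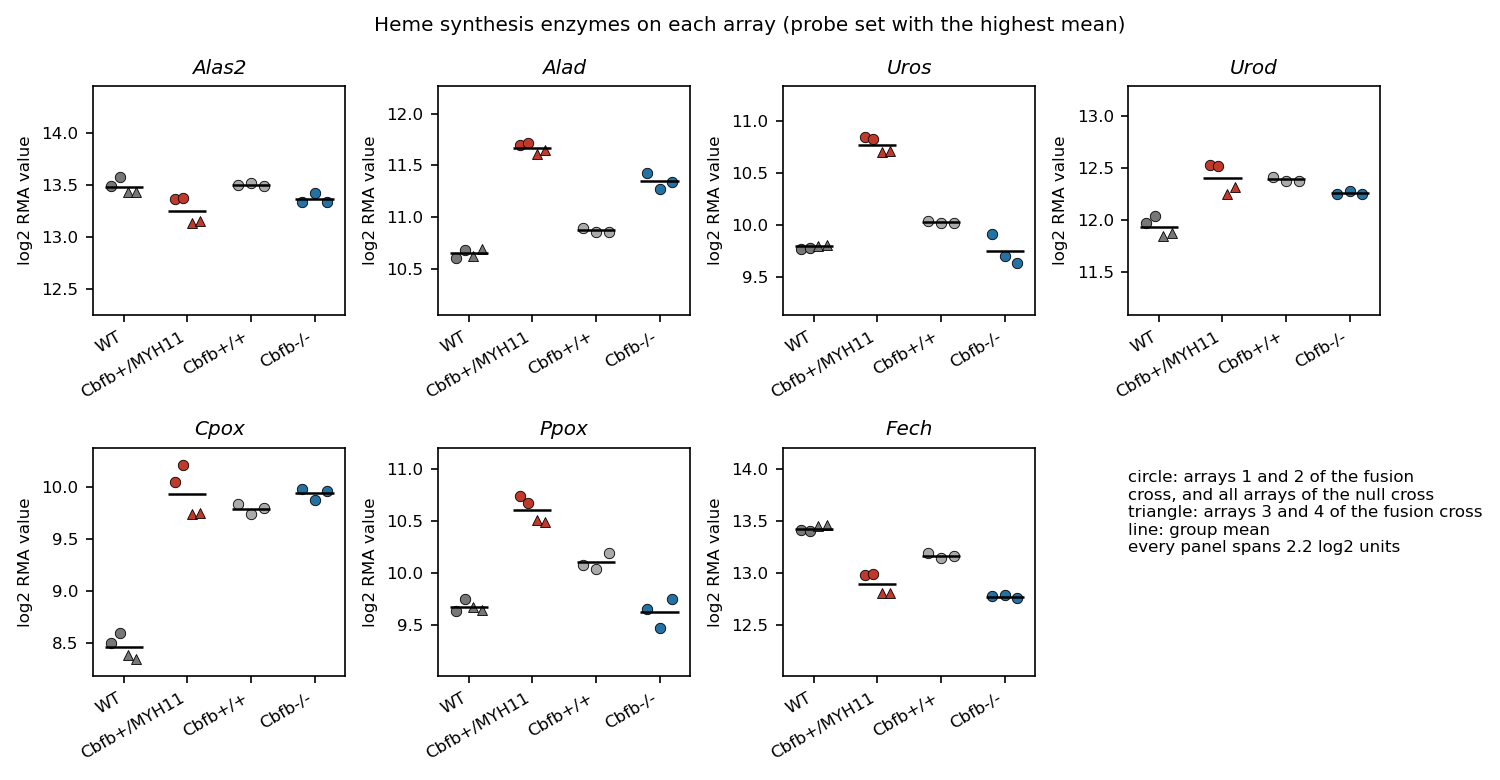
Each panel plots the log2 value (vertical axis, 2.2 units in every panel) of 1 enzyme, at its brightest probe set, on each array of the 4 groups, with the group mean as a line and arrays 3 and 4 of the fusion cross as triangles. Alad, Uros and Ppox are highest in Cbfb+/MYH11, Cpox is lowest in WT (8.35 to 8.60), and Fech is highest in WT.

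For the difference between the mutants, 9 of the 14 probe sets were called with the higher effect in Cbfb+/MYH11 and 0 with the lower, which is 64.3%, against 14.7% and 5.89% of all tested probe sets. The 9 were the Ppox set, both Uros and both Urod sets, all 3 Cpox sets and the dimmer Alad set. Without Cpox 1440747_at, which passed the filter only through the fusion arrays, they were 8 of 13. Neither Alas2 nor any Fech set was among them. With 1 probe set a gene, 4 of the 7 enzymes (Alad, Uros, Cpox and Ppox) rose in Cbfb+/MYH11 and 0 fell, against 30.5% and 5.63% of all 7392 genes, and none was called in Cbfb-/-, where 19.5% rose and 6.66% fell.

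Counted by non-overlap of arrays, 9 probe sets were higher on every Cbfb+/MYH11 array than on any WT array and 4 were lower, where 38.2% and 13.3% of all tested probe sets were. In the null cross 2 were higher on every mutant array and 10 were lower, against 44.2% and 25.7%. The 10 lower sets included Alas2, Ppox and the 3 of Fech. Cpox 1440747_at, which passed the filter only through the fusion arrays, was among both the 9 and the 10.

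A quantity within each array sets the middle of the pathway against its ends and does not move with the scaling of the whole array by a constant. It is the mean of Alad, Uros, Urod, Cpox and Ppox minus the mean of Alas2 and Fech, at the brightest probe sets. This grouping was chosen after the values were seen, so a higher value in Cbfb+/MYH11 than in WT follows from the choice. The same holds for the pairs of enzymes below. Its size has no meaning across genes, only its difference between groups. It was between -2.01 and -1.99 on the 4 arrays of Cbfb+/MYH11 and -3.36, -3.32, -3.37 and -3.37 in WT. The null cross gave -2.41, -2.58 and -2.46 in Cbfb-/- and -2.69, -2.72 and -2.68 in Cbfb+/+. The fusion arrays were above WT by 1.36, with SDs of 0.01 and 0.03 over 4 arrays each, and arrays 3 and 4 sat where arrays 1 and 2 did. In the null cross the difference was 0.22. Within the same arrays Cpox minus Fech differed by 2.02 in the fusion cross and 0.55 in the null cross, Alad minus Fech by 1.55 and 0.86, and Uros minus Alas2 by 1.21 and -0.14. Taken within arrays 1 and 2 and within arrays 3 and 4, in that order, Cbfb+/MYH11 differed from WT at the brightest sets by -0.17 and -0.29 for Alas2, 1.06 and 0.97 for Alad, and 1.05 and 0.91 for Uros. The values were 0.52 and 0.42 for Urod, 1.58 and 1.38 for Cpox, 1.01 and 0.84 for Ppox, and -0.43 and -0.64 for Fech.

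**Figure D3:**
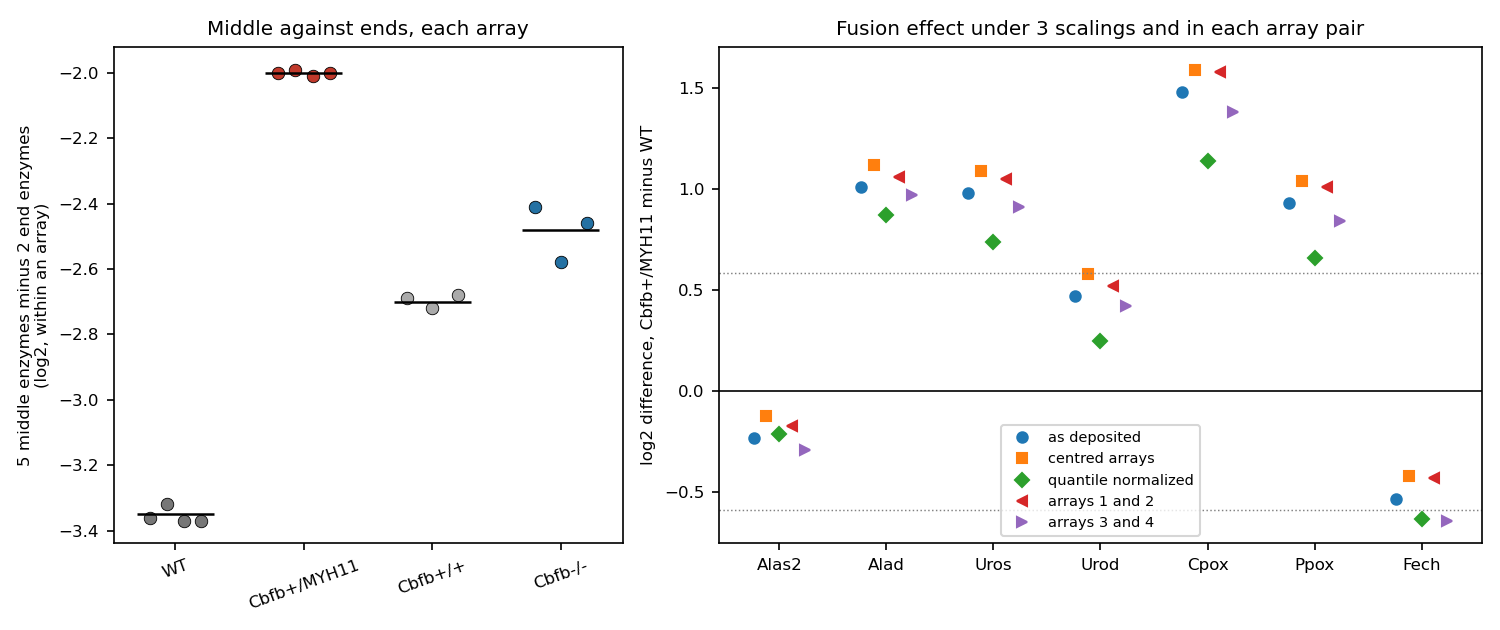
The left panel plots, for each array, the mean log2 value of the 5 middle enzymes minus that of Alas2 and Fech (vertical axis), with group means as lines. The right panel plots the log2 difference of Cbfb+/MYH11 from WT for each enzyme as deposited, after centring or quantile normalization, and within each array pair, with dotted lines at 1.5-fold: Alad, Uros, Cpox and Ppox stay above the upper line under all 5, and Alas2 and Fech stay below 0.

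The wild-type groups of the crosses were not alike in these genes. Every Cbfb+/+ array was above every WT array at 7 of the 14 probe sets and below at 3, where 18.0% and 15.8% of all tested probe sets were. The largest gap was at Cpox 1422493_at, where Cbfb+/+ was 1.33 above WT and the Cbfb+/MYH11 arrays were only 0.15 above Cbfb+/+ and overlapped with it. Urod behaved alike, with Cbfb+/+ 0.71 and 0.46 above WT at its 2 sets and Cbfb+/MYH11 at -0.09 and 0.01 from Cbfb+/+. Alad, Uros and Ppox were different: at their brightest sets Cbfb+/MYH11 was above Cbfb+/+ by 0.80, 0.74 and 0.50, with no overlap. Alas2 was lower in Cbfb+/MYH11 than in Cbfb+/+ by 0.25 and the brightest Fech set by 0.27. These values cross the 2 crosses and were not tested, since the groups come from different crosses.

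Over the 14 arrays the enzymes fell into a few shared patterns, which are descriptions of 4 groups of arrays from shared pools and not of independent samples. Uros and Ppox were most alike (r = 0.96), followed by Urod and Cpox (0.93). Alad ran against Fech (-0.85) and Alas2 (-0.77), and Alas2 and Fech went together (0.69). Among 7392 genes, those most like the mean of the 7 enzymes were Mad2l1bp (0.994), Klf1 (0.968), Gata1 (0.958), Pde10a (0.952) and Rnf167 (0.947). Klf1 (0.967), Samd14 (0.969) and the Rh-associated glycoprotein Rhag (0.948) were closest to Urod, and the red cell glycophorin Gypc (0.976), Rpia (0.969) and Kcnn4 (0.968) to Ppox. Closest to Alas2 were Pdzk1ip1 (0.970), Ube2o (0.948) and Crtc1 (0.942), and to Fech the glycolytic hexokinase Hk1 (0.982), Ranbp10 (0.975) and Fam117a (0.972). For Alad they were Sec22b (0.978), Ptp4a2 (0.974) and Snrpc (0.973), for Uros 6030468B19Rik (0.988), Ubac1 (0.984) and Emilin2 (0.979), and for Cpox Nars (0.979), Cdkn3 (0.977) and Tmem238 (0.968).

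Genes that feed the pathway across the mitochondrial membranes were mixed. Of 14 tested mitochondrial partners 6 rose and 2 fell in Cbfb+/MYH11, with a median of 0.32. With 1 probe set a gene, 30.5% of all 7392 genes rose and 5.63% fell in Cbfb+/MYH11, and 19.5% rose and 6.66% fell in Cbfb-/-. These shares stand beside the counts of every gene list below. Tmem14c, which moves protoporphyrinogen into the matrix ahead of Ppox, rose most, by 2.31 (adjusted p = 1.96e-09), and its effect differed from that in Cbfb-/- by 2.35 (adjusted p = 2.01e-07). Its group mean was 11.17 in Cbfb+/MYH11, 8.85 in WT, 10.05 in Cbfb-/- and 10.09 in Cbfb+/+, so WT was again the lowest. The iron importer Slc25a28 (mitoferrin 2) was called higher by 1.01 (adjusted p = 0.000107), but it passed the filter only through the fusion arrays (5.93 to 6.28, against at most 5.49 in WT). Clpx (0.82), the chaperone that activates Alas enzymes, Pgrmc1 (0.74), a partner of Fech, Sucla2 (0.61) and the porphyrin transporter Abcb6 (0.59) rose too, but none of these 4 was called after quantile normalization, under which 2 partners rose and 2 fell and the median was -0.10. The porphyrin-binding translocator genes fell: Tspo2, the erythroid form, by 2.59 (adjusted p = 8.3e-07) and Tspo by 0.65 (adjusted p = 0.000583), the latter not with centred arrays. Mitoferrin 1, Slc25a37, which supplies iron to Fech in red cells, was at -0.30 (adjusted p = 0.00596), and Abcb10, which stabilizes it, at 0.04 (adjusted p = 0.861).

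In Cbfb-/- the partners gave 2 higher and 2 lower calls, with a median of -0.32. Slc25a38, which brings glycine in for Alas2, fell by 0.77 (adjusted p = 0.000674), against a difference of 0.35 in Cbfb+/MYH11 that was -0.07 with quantile normalization, and the effects differed by 1.12 (adjusted p = 0.000274). Tspo2 fell by 2.18 (adjusted p = 7.52e-05), close to its fall in the fusion cross, with a difference of the effects of -0.41 (adjusted p = 0.376). Pgrmc1 rose by 1.11 (adjusted p = 0.00889), and Suclg1, a subunit of succinyl-CoA ligase, by 0.62 (adjusted p = 0.0125), the latter not after quantile normalization. Slc25a37 was at -0.55 (adjusted p = 0.000921), under the fold floor, and Tmem14c at -0.04 (adjusted p = 0.758).

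Fech carries an iron-sulfur cluster, and 10 genes of cluster assembly were tested. In Cbfb+/MYH11 Nfu1 rose by 1.56 (adjusted p = 1.63e-05), Isca2 by 1.15 (adjusted p = 1.18e-05) and Hspa9 by 1.07 (adjusted p = 0.00125), and the co-chaperone Hscb fell by 0.73 (adjusted p = 0.000267). The median was 0.32, or 0.06 with quantile normalization. Of the other Hspa9 probe sets, one went the same way (0.82) and those at -0.42 and -0.40 went against it. In Cbfb-/- Hspa9 (1.32), Nfu1 (0.92) and the ferredoxin Fdx1 (0.71) rose and Hscb (-0.75) and Isca1 (-0.68) fell, with a median of -0.08.

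Of 9 tested genes of heme breakdown, transport and sensing, 2 rose and 3 fell in Cbfb+/MYH11 (median 0.02) and 0 rose and 4 fell in Cbfb-/- (median -0.32). Heme oxygenase 1, Hmox1, fell by 1.19 (adjusted p = 6.71e-06) in Cbfb+/MYH11 and by 0.63 (adjusted p = 0.00448) in Cbfb-/-, the latter not with centred arrays. The heme exporter Flvcr1 fell by 0.74 and 0.72, and the heme importer of endosomes Slc48a1 by 0.96 and 0.73, in that order. Biliverdin reductase Blvra and the porphyrin exporter Abcg2 rose in Cbfb+/MYH11 by 1.72 (adjusted p = 2.39e-07) and 1.79 (adjusted p = 2.92e-07), and were at 0.06 and 0.38, not called, in Cbfb-/-. Blvra passed the filter only through the fusion arrays (7.03 to 7.51, against at most 5.80 in WT). Their effects differed from those in Cbfb-/- by 1.67 (adjusted p = 2.9e-05) and 1.41 (adjusted p = 0.000171). Bach1, the heme-responsive repressor, fell by 0.70 (adjusted p = 0.00703) in Cbfb-/-, with the effects 0.79 apart (adjusted p = 0.0203). That difference of the effects was 0.60 and not called after quantile normalization.

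**Figure D4:**
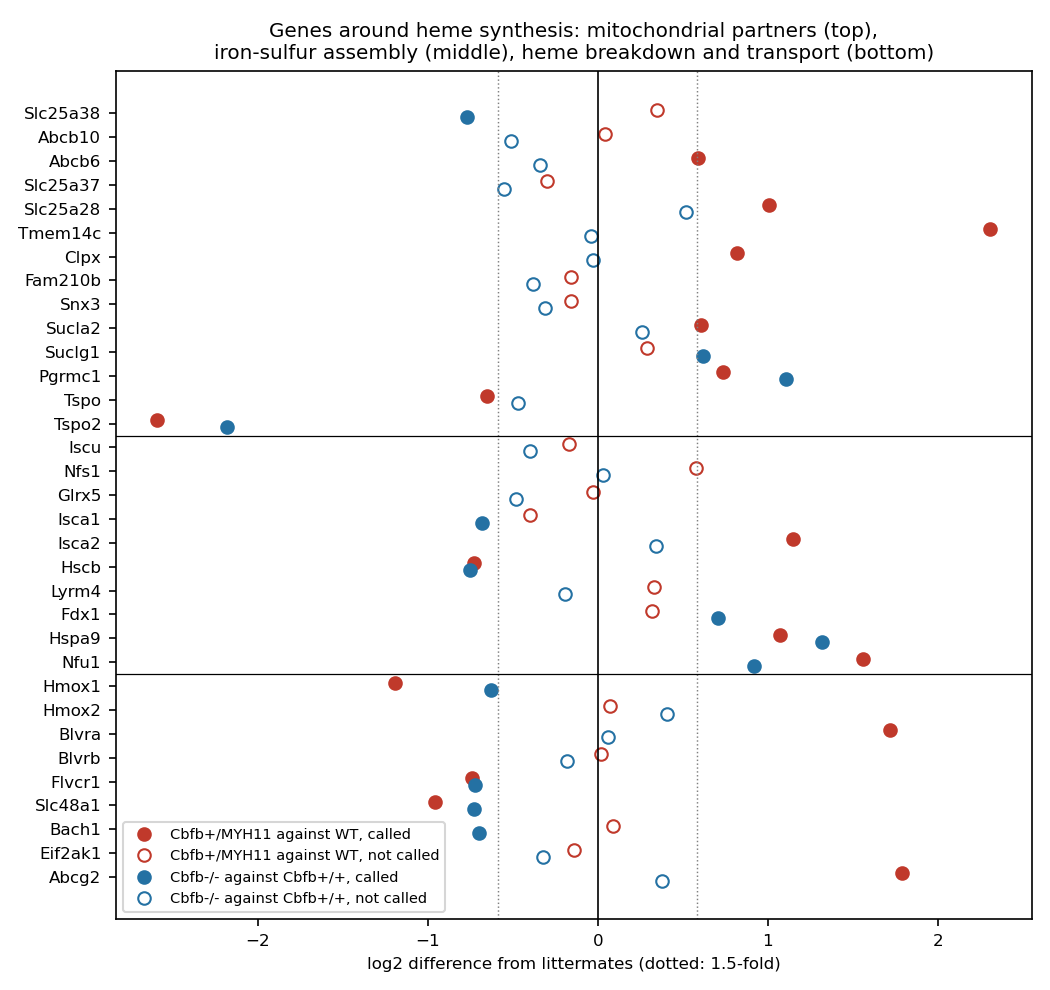
The log2 difference from littermates (horizontal axis) is plotted for genes around the pathway in 3 blocks, with Cbfb+/MYH11 in red and Cbfb-/- in blue and filled points for called genes. Tmem14c (2.31), Abcg2 (1.79) and Blvra (1.72) stand far right in red alone, and Tspo2 lies far left in both colours (-2.59 and -2.18).

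The makeup of the blood moved with the groups, and its part in the enzymes' differences was not tested. In bulk RNA, fewer cells of a type and less RNA per cell cannot be told apart. Defining red cell genes were at the top of the scale in all groups (Hbb-y means 14.24 to 14.54, Hba-x 14.29 to 14.40). The mean of the 13 erythroid markers with a probe set was 10.58 to 10.86 in Cbfb+/MYH11, 10.56 to 10.75 in WT, 10.42 to 10.52 in Cbfb-/- and 10.72 to 10.77 in Cbfb+/+. That mean includes Hba-a1 and Hba-a2, which stayed below the filter, and 11 markers were tested. Of these markers Klf1 (0.86), Gata1 (0.77) and the erythropoietin receptor Epor (0.65) rose and Hbb-b2 (-1.05) fell in Cbfb+/MYH11, and Hbb-b2 (-0.74) and Ermap (-0.85) fell in Cbfb-/-. After quantile normalization Gata1 (0.52) and Epor (0.32) were not called in Cbfb+/MYH11, and Epb42 (-0.71) was called lower there. In Cbfb-/- that setting called Gata1 (-0.62), Epor (-0.67) and Epb42 (-0.61) lower besides Hbb-b2 and Ermap. All 14 tested cell cycle genes rose in Cbfb+/MYH11 (Pcna by 1.93, Ccna2 by 1.32) and 6 in Cbfb-/-, Pcna among them. Their list mean was 9.35 to 9.48 in Cbfb+/MYH11, at most 9.12 in Cbfb-/- and 8.20 to 8.25 in Cbfb+/+, but in WT it was 7.08 and 7.27 on arrays 1 and 2 and 8.46 and 8.41 on arrays 3 and 4.

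Other cell types differed more. Of 8 platelet markers 5 fell in Cbfb+/MYH11 and 8 in Cbfb-/- (list means 5.97 to 6.08 against 7.16 to 8.86, and 6.25 to 6.28 against 8.34 to 8.44), with Pf4 down by 3.44 and 1.45, and Tubb1 at 0.46, not called, and down by 2.62. Of 9 tested macrophage markers 7 and 9 fell, with Ctss at -2.60 and -2.30, while Csf1r was at 0.23, not called, and -2.39. The other tested Csf1r sets were at -0.05 and -0.11 in Cbfb+/MYH11 and at -1.05 and -0.98 in Cbfb-/-. The macrophage markers Mrc1, Tyrobp, Fcer1g, C1qa, C1qb and C1qc and the platelet markers Gp1bb and Clec1b were below 6 on every mutant array. They passed the filter only through littermate arrays, so their falls are not independent of having passed. Over all 11 macrophage markers, the untested Cd68 and Adgre1 included, list means were 4.96 to 5.08 against 5.73 to 7.58, and 5.02 to 5.28 against 7.09 to 7.15. Neural genes rose for 3 of 8 in Cbfb+/MYH11 (5.41 to 7.25 against 3.96 to 5.65) and for 8 of 8 in Cbfb-/- (8.06 to 8.22 against 4.41 to 4.62), where Nnat rose by 3.41 and Nes by 1.11. Of these 8, Dmrta2 and Lhx2 passed the filter only through the Cbfb-/- arrays (8.06 to 8.35 and 9.34 to 9.59, against at most 4.27 and 5.80 in Cbfb+/+). Sox2, Fabp7 and Zic1 were below 6 on every littermate array and passed only through mutant arrays. Sox2 and Fabp7 were among the 3 that rose in Cbfb+/MYH11. The rises of all these genes are not independent of having passed. In Cbfb+/MYH11 Nnat was at 1.26 and Nes at -0.23, not called. Of 7 tested liver or visceral endoderm genes 4 fell in Cbfb+/MYH11 and 5 rose in Cbfb-/-. Over all 8 of that list, the untested Fgb included, list means were 4.79 to 5.79 against 5.19 to 7.58, and 7.53 to 7.83 against 6.27 to 6.29. Afp was not called in either comparison (-2.10 and 1.13), and Ttr was at -0.13 and rose by 2.35. Within arrays 1 and 2 and within arrays 3 and 4 of the fusion cross, Afp differed by -6.17 and 1.97.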

How the data were processed

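Total RNA of pooled blood was run on 14 Affymetrix mouse arrays. The authors deposited log2 intensities, which they obtained by RMA (Affymetrix Expression Console) per the submitters' processing notes. Versions are not given in the sources used here. The values were used as deposited, and 0 columns belonged to other series. Array medians were 4.27 to 4.46, and the number of arrays limits the precision.

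Names came from the platform table, in which 34945 carried 1 symbol, 932 several and 9160 none, besides 64 array controls, which were left out. Group means of all 14 arrays were fitted in 1 model with limma 3.58.1 in R 4.3.3, over the 12190 probe sets at a log2 value of at least 6 on at least 3 arrays. The residual degrees of freedom were 10. P-values are limma's, with Benjamini-Hochberg adjustment across every tested probe set of a contrast. A called probe set had an adjusted p under 0.05 and differed by 1.5-fold or more. Intervals are 95% intervals of this fit. The fit was tested on simulated data with independent noise on each array. Such data hold no array pairs or shared pools, so the test does not cover them.

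The enzymes, gene lists, contrasts and motifs were chosen with earlier results of these data known. List genes take their brightest probe set (mean of all arrays). Named were all enzyme probe sets, list genes called in either mutant, 2 markers of highest mean a list (others named in the text were chosen after their values were seen) and the 3 genes most alike to each enzyme, or 5 to their mean, by Pearson r.

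Labels give replicate numbers in each cross. Same-numbered arrays of the fusion cross deviated together (r 0.522, 0.410, 0.496 and 0.500 over tested probe sets), but so did arrays of the same pair (WT 1 with fusion 2, 0.424), so the shared unit may be the array pair. In the null cross the correlations were 0.019, 0.009 and 0.034. The block on the replicate number was therefore an alternative. Other alternatives were quantile normalization, centring, other filters, 1 probe set a gene, only the 2 groups compared, array pairs as blocks, single pairs, averaged pools and leaving out each array. Promoter sequences are RefSeq's (GRCm38.p6), and the build of the array annotation is not given in the sources used here.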

Additional observations from a re-analysis of the deposited data

Results flagged for a closer look

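The effect in Cbfb+/MYH11 was higher than that in Cbfb-/-, by the test of the difference itself, for enzymes of the middle of the pathway. On the log2 scale the difference was 1.06 for Alad 1457306_at, 1.26 and 1.02 for Uros 1423482_at and 1440535_at, 0.79 and 0.60 for Urod 1417206_at and 1443849_x_at, and 1.40 for Ppox 1416618_at. For Cpox it was 1.17 at 1422492_at, 1.33 at 1422493_at and 2.71 at 1440747_at. The last set passed the filter on low values only through the fusion arrays and was below 6 on every array of the null cross. The value for Alad 1457306_at was 0.87 and not called with quantile normalization, and its call also ended without Cbfb+/+ array 2.

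Around heme, other named genes that passed the same test in the same direction were Tmem14c (2.35), Blvra (1.67), Abcg2 (1.41), Slc25a38 (1.12), Abcb6 (0.93), Clpx (0.85), Isca2 (0.81) and Bach1 (0.79). Blvra passed the filter only through the fusion arrays. The markers Tubb1 (3.08), Csf1r (2.62) and Ccna2 (0.96) passed the test in this direction too. So did the erythroid markers Klf1, Gata1, Epor and Ermap. After quantile normalization Bach1 was at 0.60 and not called, and Ermap was not called either. At the other tested Csf1r sets the effects lay closer together, at -0.05 and -0.11 in Cbfb+/MYH11 and -1.05 and -0.98 in Cbfb-/-. The effect was lower in Cbfb+/MYH11 for Dmrta2 (-3.79), Lhx2 (-3.06), Pf4 (-1.99) and Nes (-1.34). Dmrta2 and Lhx2 passed the filter only through the Cbfb-/- arrays.

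In 3 groups of 4 arrays, 1 array stood away from the others by Dixon's ratio: Nfu1 in Cbfb+/MYH11 (0.866), Nes in Cbfb+/MYH11 (0.866) and Tspo2 in WT (0.884). Chance alone marks about 1 group in 20, and none of the enzyme probe sets was marked.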

How the results depend on the processing

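The direction of the enzymes' effects held under the alternatives except at Cpox 1422493_at in Cbfb-/-, which turned to -0.01 with quantile normalization. Over single enzyme probe sets, leaving out 1 array ended a call 14 times, made one 5 times and changed nothing 373 times, and other settings ended 27, made 8 and left 332.

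Of the 8 enzyme probe sets that rose in Cbfb+/MYH11, the fit with 1 probe set a gene called 4 (of 7 genes) and averaged pools 0. The 1 that fell became 3 with quantile normalization, 0 with centred arrays, 0 with 1 probe set a gene, 0 with pools, 3 in arrays 3 and 4 alone, and 1 to 2 without single arrays. The 2 that fell in Cbfb-/- became 4 with quantile normalization, 1 with centred arrays, 1 with no filter, 1 with a filter at 7, 0 with 1 probe set a gene, 0 with pools, and 1 without any single array. The 9 with a higher effect in Cbfb+/MYH11 than in Cbfb-/- became 4 with 1 probe set a gene and 0 with pools.

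Over all probe sets, 3701 were higher in Cbfb+/MYH11 (quantile 2176, 1 probe set a gene 2255, pools 7) and 687 lower (quantile 1699, centred 457, no filter 1325, filter at 7 452, 1 probe set a gene 416, pools 0). In Cbfb-/- 2411 were higher (1 probe set a gene 1443, pools 0) and 891 lower (quantile 1575, no filter 1365, 1 probe set a gene 492, pools 0). For the difference 1790 were higher (1 probe set a gene 1099, pools 0) and 718 lower (no filter 1260, filter at 7 352, 1 probe set a gene 449, array pair block 1257, pools 0). With pools 849 of all probe sets had an unadjusted p under 0.05 for the difference in limma.

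The replicate block left the enzyme counts at 8 and 1, 0 and 2, and 9 and 0, and its only count that moved by over 1.5 times was that of lower differences over all probe sets, 1096.

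Among markers, Hbb-y in Cbfb-/- went to 0.00 with quantile normalization. In Cbfb+/MYH11 Afp went to 1.97 and Ttr to 2.16 in arrays 3 and 4 alone, Csf1r to -0.09 with quantile normalization and -1.08 in arrays 1 and 2 alone, and without single arrays Ttr ranged from -0.53 to 0.31 (0.21 to 0.31 where it turned) and Csf1r from -0.17 to 0.60. Why settings moved these values was not tested.

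The arrays are called technical replicates, so the precision given is that of arrays. Alas2 and Fech lie near the top of the scale, and Cpox 1440747_at and the 3 untested sets near its bottom, where small differences are compressed or lost in background.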
